A study of Mus musculus with 10 samples.

Results

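The genes described here are 10 markers of cortical interneurons born in the caudal ganglionic eminence: Vip, Cxcl14, Htr3a, Adarb2, Prox1, Nr2f2, Calb2, Ndnf, Lamp5 and Cck. They are known markers of these cells and were chosen by the higher Cxcl14 and Vip levels that earlier results on the same libraries had shown in the knockout. All 10 were found among the 30935 genes of the count table, and all 10 passed the filter on low counts that left 15488 tested genes. The 10 RNA-seq libraries came from mouse cerebral cortex, taken at postnatal day 8. 5 were wild type (Rbfox1 +/+, replicates 2, 4, 5, 6 and 7) and 5 were homozygous for the ΔHAR.505 allele of Rbfox1 (replicates 1, 3, 5, 6 and 8, called knockout here), whose presence gene counts do not check. The libraries of a genotype are independent biological samples, per the design text. The labels name no sex, litter, strain or treatment.

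Interneurons of the caudal eminence migrate into the cortex late in embryonic life and settle largely in its upper layers. They are GABAergic, and most express the serotonin receptor subunit Htr3a. Vip cells mainly inhibit other interneurons, while the neurogliaform cells marked by Ndnf and Lamp5 release GABA diffusely in the superficial layers. Several of the markers are not restricted to these cells: Cck is also made by pyramidal neurons, Calb2 and Ndnf by Cajal-Retzius cells, Prox1 by dentate granule cells, and Nr2f2 by vessels and by other cells of the temporal and caudal forebrain. A gene count from a whole piece of tissue cannot tell apart a change in the number of cells of a type and a change in RNA per cell.

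The members did not all go in the direction of Cxcl14, which was higher in the knockout. Of the 10 members, 5 had a positive and 5 a negative log2 fold change of knockout against wild type, where 49.1% of all tested genes were above 0. Cxcl14 was 1 of the 29 genes higher in the knockout at an adjusted p under 0.05 by edgeR's quasi-likelihood test over all genes (0.187% of those tested, and 0.381% in either direction). None of the other 9 members, Vip among them, passed in the higher direction, and 0 of 10 passed in the lower direction, where the share over all genes was 0.194%. At an unadjusted p under 0.05, 4 members were higher (Cxcl14, Vip, Lamp5 and Cck, with 4.19% of all genes) and 0 lower (4.52% of all genes). DESeq2 gave the same counts, 1 higher and 0 lower. Because the higher values of Cxcl14 and Vip in this contrast led to the choice of the genes, these counts are a description and nothing is read from them. The median log2 fold change of the 10 members was 0.023, beside -0.0021 over all tested genes.

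**Figure D1:**
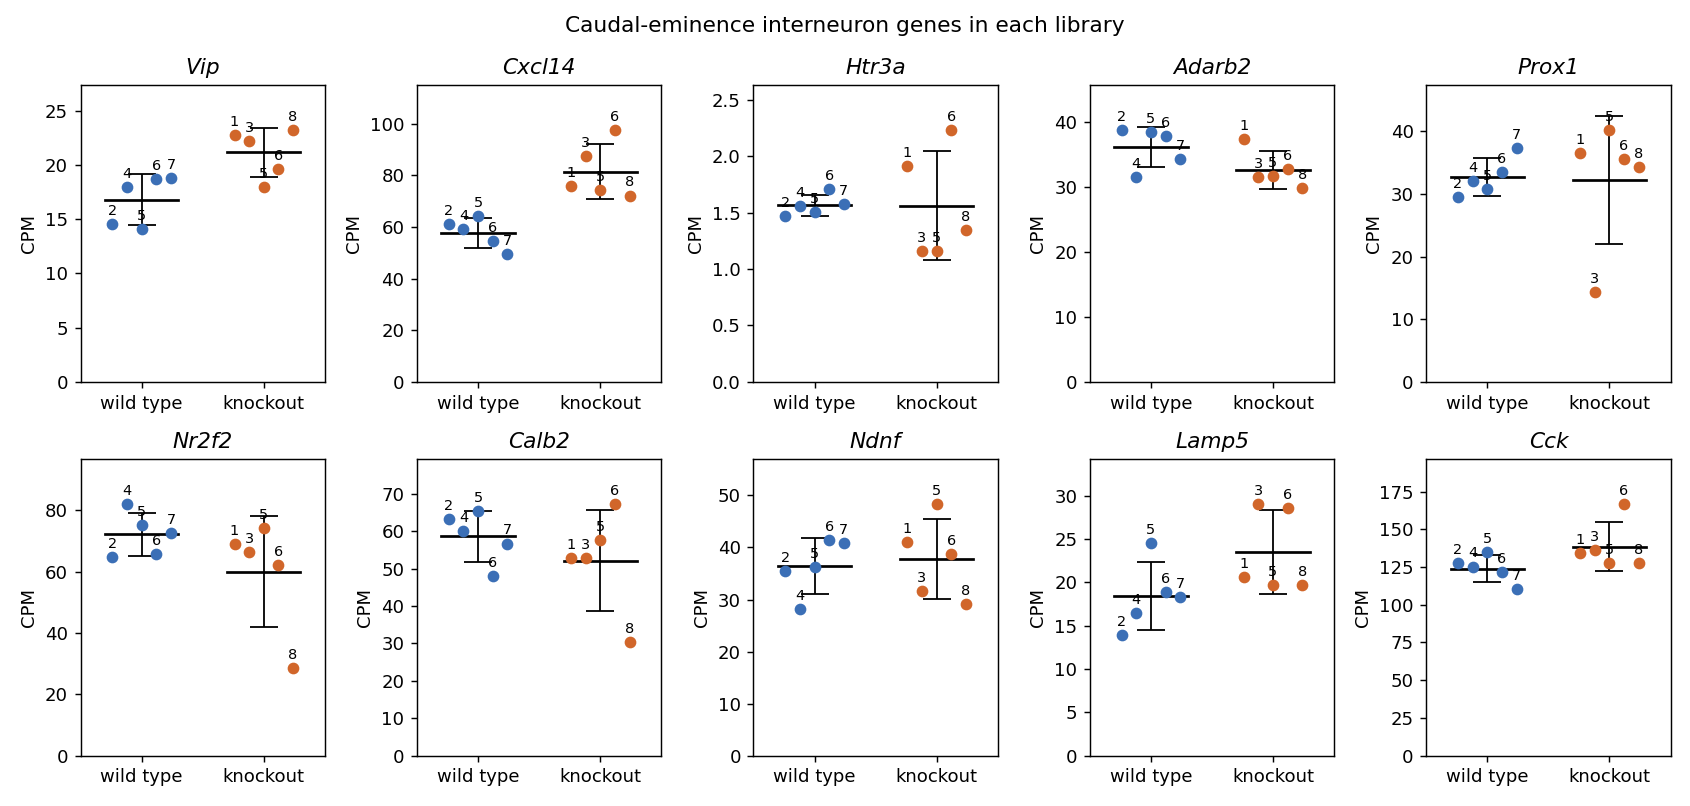
Level of each member in each library, in CPM (a gene's counts scaled to a common library size) on axes that start at 0. Points are libraries with their replicate numbers, horizontal bars are means and whiskers are SD (n = 5 per genotype). Cxcl14 is the member whose knockout libraries all lie above the wild-type libraries, and single knockout libraries lie far below the rest for Prox1 (replicate 3), Nr2f2 and Calb2 (replicate 8).

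Among the secreted signals, Cxcl14, a chemokine made by many interneurons of the caudal eminence, differed most between the genotypes. Levels are given in CPM after scaling by TMM factors, and values are listed in replicate order. Cxcl14 stood at 61.3, 59.3, 64.3, 54.6 and 49.4 CPM in the wild-type libraries and at 75.7, 87.6, 74.2, 97.4 and 72.2 CPM in the knockout libraries. The lowest knockout library lay above the highest wild-type library, which held for 0.93% of all tested genes, and the reverse order, which no member had, for 0.897%. The means were 57.8 ± 5.88 and 81.4 ± 10.8 CPM (SD, n = 5 each), a fold of 1.41 with a 95% interval of 1.25 to 1.59. The fold and interval are a description, because this higher level led to the choice of the genes.

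Vip encodes vasoactive intestinal peptide, a neuropeptide that marks the interneurons which disinhibit pyramidal cells. Its levels were 14.6, 17.9, 14.1, 18.7 and 18.8 CPM in wild type and 22.8, 22.2, 17.99, 19.6 and 23.2 CPM in knockout. 4 of the 5 knockout libraries lay above every wild-type library, while knockout replicate 5 lay below wild-type replicates 6 and 7. The means were 16.8 ± 2.31 and 21.2 ± 2.26 CPM (SD, n = 5 each), a fold of 1.26 (95% interval 1.08 to 1.46). These values too are a description, since the Vip level also led to the choice.

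Cck encodes cholecystokinin, a neuropeptide of basket interneurons that cortical pyramidal cells also transcribe. It stood at 127, 125, 135, 121 and 110.5 CPM in wild type and at 134, 136, 128, 167 and 128 CPM in knockout. The genotypes overlapped, with 3 of the 5 knockout libraries inside the wild-type range, and knockout replicate 6 stood far above the others. By edgeR the log2 fold change was 0.16 (SE 0.067), short of the threshold (adjusted p = 0.446). Without knockout replicate 6 it was 0.086.

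Ndnf, a secreted protein that marks neurogliaform cells of layer 1, ranged from 28.2 to 41.5 CPM in wild type and from 29.1 to 48.4 CPM in knockout. The genotypes overlapped almost fully, and the fold was 1.03 with a 95% interval of 0.835 to 1.28.

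The start regions of Cxcl14, Vip and Cck are shown because these are the members with the largest genotype difference, the one named beside it at the outset, and the one that followed Cxcl14 across libraries (below). RefSeq windows of 250 bases before to 50 bases after the annotated start (assembly GRCm38.p6, an earlier build than the authors' mm39) were matched for 7 of the 10 members. Each sequence is read 5′ to 3′ along the gene's strand: Cxcl14 at chr13:56296502-56296801 (minus strand), Vip at chr10:5638968-5639267 (plus strand) and Cck at chr9:121495645-121495944 (minus strand). Capitals mark TATAAA, the TATA box, searched on the gene's strand, and TGACG, the core of the cyclic AMP response element, searched on both strands, where it may read CGTCA.
Cxcl14: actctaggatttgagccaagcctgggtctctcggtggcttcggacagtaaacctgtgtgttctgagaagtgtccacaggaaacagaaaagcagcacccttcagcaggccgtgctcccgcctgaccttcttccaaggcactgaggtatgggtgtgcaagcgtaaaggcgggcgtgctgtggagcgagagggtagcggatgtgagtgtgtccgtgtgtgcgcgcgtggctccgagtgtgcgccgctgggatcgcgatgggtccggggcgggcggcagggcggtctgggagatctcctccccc
Vip: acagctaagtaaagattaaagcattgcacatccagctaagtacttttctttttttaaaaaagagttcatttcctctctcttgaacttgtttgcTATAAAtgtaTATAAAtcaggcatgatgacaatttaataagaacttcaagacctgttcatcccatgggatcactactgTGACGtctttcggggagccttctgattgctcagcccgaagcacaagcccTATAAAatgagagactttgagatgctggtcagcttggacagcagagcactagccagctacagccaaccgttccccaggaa
Cck: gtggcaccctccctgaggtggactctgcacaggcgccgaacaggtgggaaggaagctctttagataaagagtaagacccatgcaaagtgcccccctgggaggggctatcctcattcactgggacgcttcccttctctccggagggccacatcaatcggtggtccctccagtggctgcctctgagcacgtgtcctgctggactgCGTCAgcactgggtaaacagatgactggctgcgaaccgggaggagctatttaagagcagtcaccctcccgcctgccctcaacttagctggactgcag
In Vip, TATAAA began at positions -157, -147 and -30 from the annotated start and TGACG at -79. Cck held TGACG once, on the opposite strand, from position -47, and the Cxcl14 window held neither motif. Of all 32851 windows, 8.32% held TATAAA and 20.8% held TGACG. The full element TGACGTCA, which contains TGACG, was in 1.79% of them and in none of these 3. These matches describe letters only and say nothing of factor binding.

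Of the members at the cell surface and in vesicles, Lamp5, a lysosome-associated membrane protein of neurogliaform and some pyramidal cells, had levels of 14.0, 16.4, 24.5, 18.9 and 18.3 CPM in wild type. In knockout it stood at 20.7, 29.0, 19.6, 28.6 and 19.7 CPM. Wild-type replicate 5 lay above 3 of the 5 knockout libraries, so the groups overlapped. The log2 fold change was 0.36 (SE 0.15, edgeR adjusted p = 0.482), and Lamp5 had the largest relative spread of the 10 members in wild type, with a coefficient of variation of 21.2%. With the mean of the choroid plexus list as a covariate, a fit added after values were seen, its log2 fold change was 0.028. That fit also moved members with almost no genotype difference: Prox1 from -0.022 to 0.48 and Htr3a from -0.0024 to 0.33. The choroid list itself differed between the genotypes (below), and its part in the Lamp5 value was not tested.

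Htr3a, the pore-forming subunit of the ionotropic serotonin receptor, was the least abundant member, with 19 to 40 counts per library. It ranged from 1.47 to 1.71 CPM in wild type and from 1.16 to 2.23 CPM in knockout, with means of 1.56 CPM in both. The 95% interval of its fold ran from 0.644 to 1.55, so differences of moderate size in either direction were not detectable at this depth.

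Calb2 encodes calretinin, a calcium-binding protein of bipolar interneurons. It stood at 63.3, 60.0, 65.4, 48.0 and 56.7 CPM in wild type and at 52.7, 52.8, 57.6, 67.3 and 30.4 CPM in knockout. Knockout replicate 8 was the lowest of all 10 libraries, and the other 4 knockout libraries lay within or just above the wild-type range. The log2 fold change was -0.17 (SE 0.19) with all libraries and -0.021 without knockout replicate 8.

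The nuclear factors of the group did not differ beyond their spread either. Prox1, a homeobox transcription factor that caudal-eminence interneurons keep after they reach the cortex, stood at 29.5, 32, 30.8, 33.5 and 37.3 CPM in wild type and at 36.5, 14.4, 40.1, 35.6 and 34.3 CPM in knockout. Replicate 3 held less than any other library, and without it the log2 fold change moved from -0.022 (SE 0.24) to 0.17.

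Nr2f2, the orphan nuclear receptor COUP-TFII, which guides caudal migration, stood at 64.8, 82.1, 75.3, 65.8 and 72.7 CPM in wild type and at 68.9, 66.3, 74.1, 62.3 and 28.5 CPM in knockout. Replicate 8 was again the lowest library. The log2 fold change was -0.27 (SE 0.23) with it and -0.084 without it.

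Adarb2, a brain-specific relative of the RNA-editing adenosine deaminases that is thought to lack editing activity, ranged from 31.5 to 38.8 CPM in wild type and from 29.8 to 37.5 CPM in knockout. By edgeR its log2 fold change was -0.15 (SE 0.078, adjusted p = 0.625), with a 95% interval of the fold from 0.808 to 1.01.

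**Figure D2:**
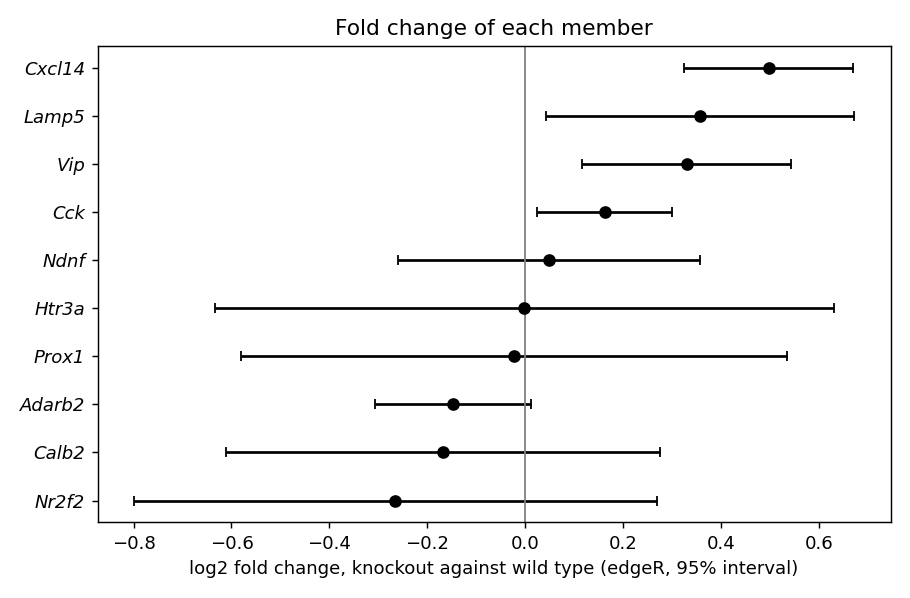
Log2 fold change of knockout against wild type for each member (point) with its 95% interval from the edgeR fit (bar). Cxcl14 is at 0.50 with an interval of 0.32 to 0.67, and the intervals of Htr3a, Prox1, Nr2f2, Calb2, Ndnf and Adarb2 include 0. The values of Cxcl14 and Vip led to the choice of the genes and are a description.

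The members differed in how widely the libraries of a genotype scattered. In knockout 4 of the 10 (Htr3a, Prox1, Nr2f2 and Calb2) had a coefficient of variation above 25%, in wild type none, and 8 of 10 scattered more in knockout than in wild type. Single libraries carried most of this for Prox1 and Nr2f2: the coefficient for Prox1 was 31.6% with and 6.81% without replicate 3, and that for Nr2f2 30.2% with and 7.30% without replicate 8. For Calb2 it was 25.9% with and 11.9% without replicate 8. Htr3a kept 25.6% without replicate 6, at counts where sampling alone adds spread. The same counts were not taken over all tested genes. Another measure was taken across all genes: chi-square per degree of freedom, which tells how far a pair of libraries differs. It was 5.85 to 13.9 in knockout and 4.10 to 8.20 in wild type, so the ranges overlapped but reached higher in knockout. It does not give the share of all genes that scattered more in knockout. The difference in scatter between genotypes was noticed in the data and was not tested.

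Other genes stood apart in the same 2 libraries, and their part in these values was not tested. In knockout replicate 8, Calb1, the gene of the related calcium-binding protein calbindin, stood at 61.7 CPM, against 105 to 122 CPM in the other knockout libraries. Rorb, a layer 4 transcription factor gene, stood at 90.1 CPM there and at 32.2 to 54.4 CPM in the others. Gad1, which encodes an enzyme of GABA synthesis, was at 112 CPM against 142 to 155 CPM. In knockout replicate 3, Zbtb20, a transcription factor gene of hippocampus and astrocytes, stood at 57.5 CPM against 96.3 to 162 CPM in the other knockout libraries. Other genes of the hippocampal list went both ways there. Lct stood at 1.66 CPM, against 4.07 to 5.82 CPM in the other knockout libraries. Tdo2 stood at 0.718 CPM, against 1.23 to 2.39 CPM, and both values were the lowest of the 10 libraries. Wfs1 stood at 119.97 CPM, the highest of the 10 libraries, and Fibcd1 at 54.9 CPM, within its knockout range of 29.3 to 54.9 CPM.

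Levels were compared between genes per kilobase of exon, with exon lengths from GENCODE M21, which may differ from the authors' annotation. In wild type the order of mean levels was Cck at 107 CPM per kilobase, Calb2 at 33.7, Cxcl14 at 31.6, Nr2f2 at 14.8, Vip at 10.996, Lamp5 at 9.41, Adarb2 at 5.38, Prox1 at 3.89, Ndnf at 3.61 and Htr3a at 0.751. The ranges over libraries overlapped between Calb2 and Cxcl14, between Vip and Lamp5, and between Prox1 and Ndnf, so these neighbours in the order were not separated. In knockout Cxcl14 stood at 44.6 ± 5.90 and Calb2 at 29.9 ± 7.76 CPM per kilobase (SD, n = 5 each) without overlap, and Cxcl14 came second in the order. Vip at 13.8 and Nr2f2 at 12.3 CPM per kilobase overlapped there. So did Nr2f2 with Lamp5, Adarb2 with Prox1, and Prox1 with Ndnf.

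Covariation was examined on log2 CPM values after subtraction of each genotype's mean, so that the contrast which led to the choice of genes does not enter. Over the 45 pairs of members and 10 libraries, 29 correlations were positive, the median Pearson r was 0.19, and 1 pair passed an exact two-sided permutation test adjusted over the 45 pairs. That pair was Cxcl14 and Cck, with r = 0.93 and Spearman's rho = 0.96. Both had an exact permutation p of 6.9e-05 (adjusted p = 0.0031), the smallest that 14400 reorderings within the genotypes can give. Without the 2 libraries farthest from the median of Cxcl14, r was 0.88. The pair passed the same test in each of the 10 analyses that left out 1 library, with r from 0.91 to 0.98.

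**Figure D3:**
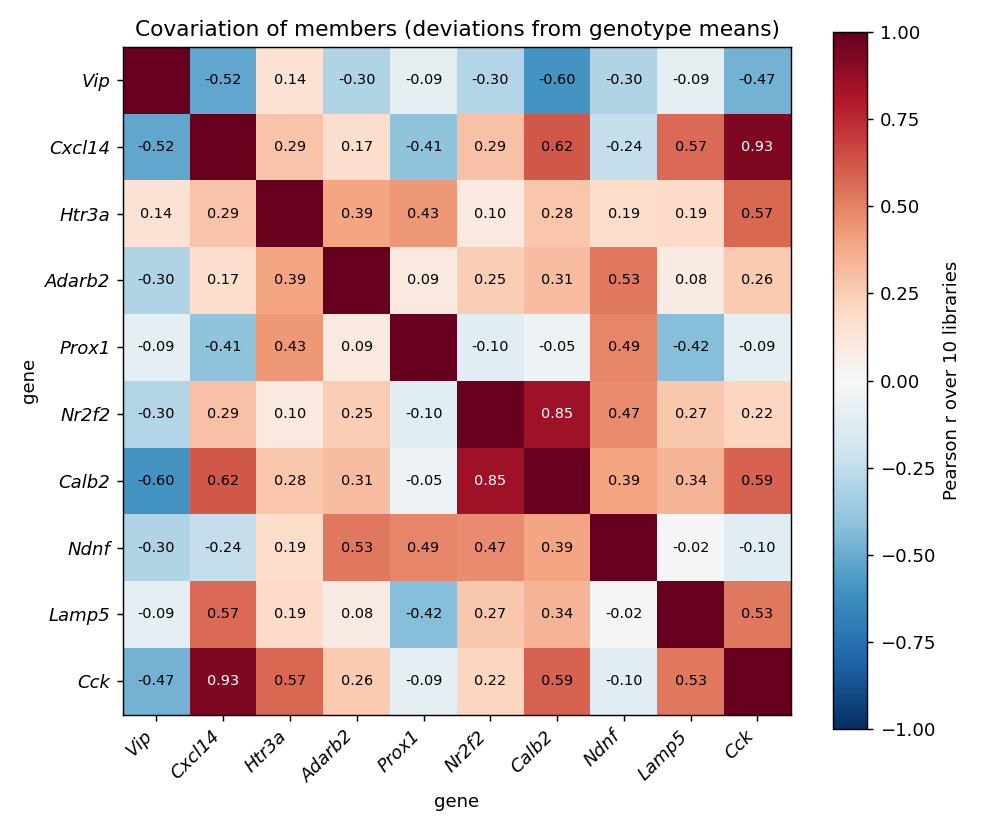
Pearson correlation of every pair of members over 10 libraries, on log2 CPM deviations from the genotype means; the colour scale runs from -1 (blue) to 1 (red). Cxcl14 and Cck have the highest value (0.93), and in the row of Vip 8 of 9 values are negative.

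Vip did not follow this pair. Its deviations had negative correlations with 8 of the 9 other members, from -0.09 for Lamp5 and Prox1 to -0.60 for Calb2, and with Htr3a the value was 0.14. With Cxcl14 the correlation was -0.52 (Spearman's rho = -0.62, exact permutation p = 0.137 and 0.0606, adjusted p = 0.718 and 0.450). Cxcl14 and Lamp5 had a correlation of 0.57 (rho = 0.55, exact permutation p = 0.115 and 0.125), which did not pass either. Vip and Calb2 had r = -0.60 and rho = -0.85 (exact permutation p = 0.0417 and 0.000764). After adjustment over the 45 pairs the exact permutation p of r was 0.718 and that of rho 0.0172, so this pair passed by rank alone. Without the 2 libraries farthest from the median of Vip its r was -0.58. Without knockout replicate 5, the pairs of Vip with Cxcl14 (r = -0.79) and of Vip with Cck (r = -0.77) also passed (exact permutation test, adjusted p = 0.0365 and 0.00781). Vip deviations had a correlation of 0.64 with the log2 total count of the library, and those of Cxcl14 and Cck -0.22 and -0.17, given here as a description.

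**Figure D4:**
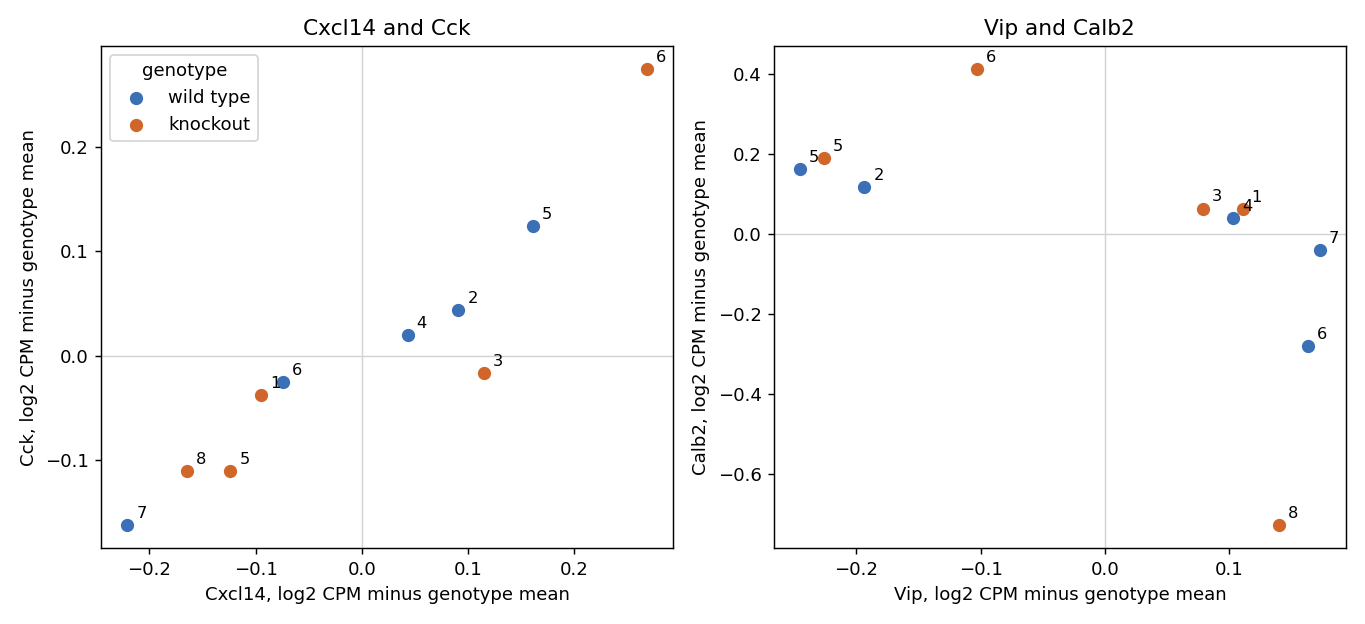
Deviation of log2 CPM from the genotype mean for Cxcl14 and Cck (left) and for Vip and Calb2 (right), each point 1 library with its replicate number. Cxcl14 and Cck rise together in both genotypes (r = 0.93); for Vip and Calb2 (r = -0.60) the points farthest from 0 on the vertical axis are knockout replicates 6 and 8.

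Nr2f2 and Calb2 had r = 0.85, the second highest value of the 45, but did not pass (exact permutation p = 0.0888, adjusted p = 0.718). That value rested on few libraries: without the 2 farthest from the median of Nr2f2, r was 0.37, and the Spearman rho over all 10 was 0.50 (exact permutation p = 0.169).

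Over all 15487 other tested genes, Cck ranked second by correlation with Cxcl14, and Calb2 and Lamp5 ranked 957 and 1378. The named genes most like Cxcl14 over the 10 libraries were Pkdcc (r = 0.94), which encodes a secreted kinase, Cck, and Mcrip2 (r = 0.93). For Vip they were Wwox (r = 0.95), an oxidoreductase gene, Ipo11 (r = 0.93), a nuclear import receptor gene, and AU041133 (r = 0.92). The best placed other member in the order for Vip was Htr3a, at rank 5420. These are the highest of very many correlations over 10 libraries and are a description.

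Other genes of caudal-eminence interneurons moved in both directions. Of 30 further genes of the lineage, 26 were tested, 12 with positive and 14 with negative log2 fold changes and a median of -0.0075. By edgeR over all genes 0 passed, while 3 higher and 3 lower had an unadjusted p under 0.05, beside 4.19% and 4.52% of all tested genes. Mab21l1, a nuclear developmental gene of 1 Vip subtype and the gene with the smallest p in this list, had means of 2.37 ± 0.920 (wild type) and 1.08 ± 0.401 CPM (knockout; SD, n = 5 each). Its edgeR log2 fold change was -1.12 (SE 0.34, adjusted p = 0.207). Reln, the secreted glycoprotein gene of neurogliaform and Cajal-Retzius cells, ranged from 188 to 270.5 CPM in wild type and from 183 to 269.5 CPM in knockout.

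Of 18 receptors of the members' peptides and close relatives of the members, 15 were tested and 0 passed the edgeR test, with 1 higher and 1 lower at an unadjusted p under 0.05. Adcyap1, which encodes PACAP, a peptide that shares receptors with Vip, differed by a log2 fold of 0.26 (SE 0.086, edgeR adjusted p = 0.261). The receptor genes Vipr1 (0.09, SE 0.15), Vipr2 (0.26, SE 0.26) and Adcyap1r1 (0.01, SE 0.049) did not pass the test. For Cckbr, the cortical cholecystokinin receptor gene, the value was -0.022 (SE 0.15), and Cckar, with at most 0.232 CPM in any library, was not tested. Htr3b, the partner subunit of Htr3a, had at most 0.168 CPM. Nr2f1, the sister gene of Nr2f2, stood at 223 ± 8.47 and 206 ± 7.36 CPM (SD, n = 5 each; edgeR adjusted p = 0.413).

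Medial-eminence interneuron genes were set beside the members, without a test of the difference. Of 18 tested genes 7 had positive and 11 negative log2 fold changes, with a median of -0.037. 0 passed the edgeR test. At an unadjusted edgeR p under 0.05, 1 was higher and 7 were lower, beside 4.19% and 4.52% of all tested genes. Tac1, the substance P precursor gene, which striatal neurons also express, had the smallest p (log2 fold change -0.42, SE 0.13, adjusted p = 0.197). Sst, the somatostatin gene, stood at 176, 165, 165, 150.0 and 145 CPM in wild type and at 139, 142, 121, 163 and 123 CPM in knockout, with overlap between the genotypes. The Sst log2 fold change was -0.22 (SE 0.072, edgeR adjusted p = 0.317).

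Among 13 genes of all GABAergic neurons, 2 fell and 0 rose in the edgeR test over all genes, with a median of -0.061. Of all tested genes 0.194% fell and 0.187% rose. Slc32a1, the vesicular GABA transporter gene, stood at 104 to 131 CPM in wild type and at 84.9 to 99.3 CPM in knockout, without overlap. Sp9, a transcription factor gene of striatal and interneuron precursors, fell by 0.54 on the log2 scale (SE 0.12, adjusted p = 0.0386). When each library was left out in turn, Sp9 passed in 3 and Slc32a1 in 9 of 10 fits, and Slc32a1 missed the edgeR threshold without wild-type replicate 5 (adjusted p = 0.0515). Without knockout replicates 3, 5 and 6 neither Slc32a1 (adjusted p = 0.108) nor Sp9 (adjusted p = 0.425) passed. Gad1 and Gad2, the genes of GABA synthesis, were not among the called genes.

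Markers of neighbouring tissue moved with the genotype beside all of these results. Of 13 tested striatal genes 2 fell (Six3 and Penk) and 0 rose by edgeR, where 0.194% of all tested genes fell. At an unadjusted edgeR p under 0.05, 10 were lower and 2 higher, beside 4.52% and 4.19% of all genes. The striatal median was -0.57, with summed levels of 269 to 418 CPM in wild type and 219 to 292 CPM in knockout. Of 15 choroid plexus and ependymal genes 2 fell (Clic6 and Tmem72) and 0 rose, with 8 lower and 0 higher at an unadjusted edgeR p under 0.05. Their summed level was 267 to 329.9 CPM in wild type, and in knockout it was 244, 23.3, 28.9, 32.9 and 110.1 CPM in replicate order. The choroid marker Ttr was at 0 CPM in knockout replicate 3 and at 200.2 CPM in replicate 1. Of the thalamic list, Gbx2 had at most 0.102 CPM in any library. Other genes of that list were detected in all libraries, such as Slc17a6 (81.0 to 105 CPM) and Prkcd (12.9 to 23.3 CPM). Of these lists 0 genes were at 0 in all libraries. With the choroid list as a covariate the log2 fold change of Cxcl14 was 0.33, and with the striatal list it was 0.48. No member was then called, and 754 and 634 of all genes had an unadjusted p under 0.05. Without the 3 knockout libraries of lowest choroid signal the Cxcl14 value was 0.36. The part of choroid and striatal tissue in the members' values was not tested further.

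Lists of other cells that could hold the members had no gene called by edgeR with all libraries. For excitatory neurons (15 tested, 11 positive, median 0.093) the gene with the smallest p was Fezf2, a layer 5 transcription factor gene (0.22, SE 0.063, edgeR adjusted p = 0.161). In the Cajal-Retzius list (10 tested, median -0.16) it was Barhl2, a homeobox gene at 1.79 and 0.726 CPM (-1.29, SE 0.34, adjusted p = 0.108). In the hippocampal list (11 tested, median 0.10) it was the neurotensin gene Nts (0.15, SE 0.088), and in the thalamic list (8 tested, median -0.10) the kinase gene Prkcd (-0.31, SE 0.13). In the endothelial and mural list (13 tested, median 0.024) it was the pericyte gene Rgs5 (0.14, SE 0.060), and in the meningeal list (11 tested, median 0.034) the matrix gene Dcn (0.24, SE 0.19). Barhl2 passed with DESeq2 (adjusted p = 0.0244), and without knockout replicate 8 Fezf2 and Prkcd passed with edgeR (adjusted p = 0.0366 and 0.0377). At an unadjusted edgeR p under 0.05 these 6 lists held 3 higher and 6 lower genes, beside 4.19% and 4.52% of all tested genes. The olfactory neuroblast list (10 tested, 7 negative, median -0.22) had 1 called gene, Sp9.

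**Figure D5:**
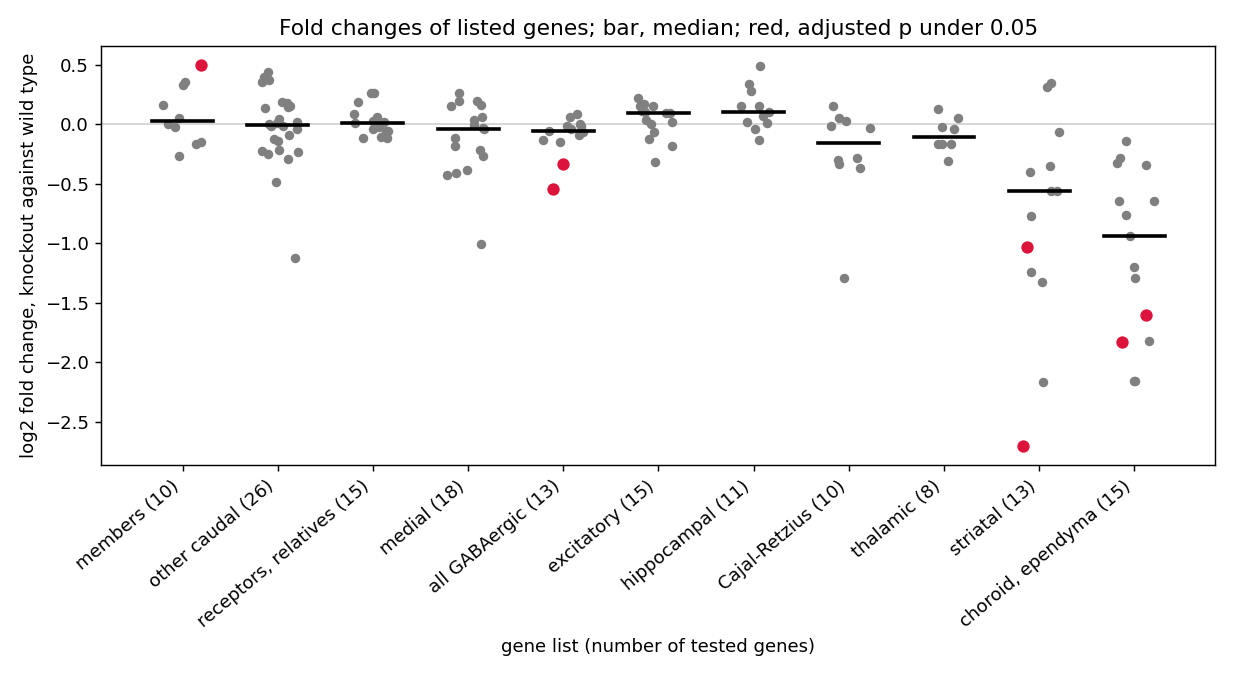
Log2 fold change of knockout against wild type for the tested genes of each list, with the number of genes in brackets, horizontal bars at the list medians and genes past the adjusted threshold in red. The members lie on both sides of 0 (median 0.023) with Cxcl14 in red, while the striatal and choroid lists lie mostly below 0 (medians -0.57 and -0.94).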

How the data were processed

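The deposited values are raw counts of reads by Entrez gene, in 1 table. Per the submitters' processing notes the authors used HISAT2, featureCounts and the mm39 build. No version, annotation or strand setting is stated, so reads from overlapping or antisense genes cannot be told apart. Library totals were 16479594 to 22391943 counts. Symbols came from RefSeq for GRCm38.p6 (30648 of 30935 identifiers matched). Libraries of a genotype differed by more than sampling noise (chi-square per degree of freedom 4.10 to 8.20 in wild type and 5.85 to 13.9 in knockout). Each library is 1 replicate.

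Genotypes were compared in R 4.3.3 with edgeR 4.0.16 (filterByExpr, TMM factors, robust quasi-likelihood test, Benjamini-Hochberg adjustment over all tested genes, threshold 0.05, genotype as the sole term). Standard errors come from the F statistic. Correlations used log2 CPM with a prior count of 2. Both analyses were tested on simulated data. Alternatives covered normalization, filters, limma-voom (limma 3.58.1), DESeq2 1.42.0, threshold, left-out libraries, a replicate block, prior count and Spearman ranks; covariates and the fit without 3 knockout libraries were added after values were seen. The members and lists were chosen with earlier results of these data known. Named are all members, in each list every called gene or else the one with the smallest p, and the 3 genes most correlated with Vip and with Cxcl14, predicted genes passed over; other genes, such as Calb1, Rorb, Zbtb20, Gad1, Reln, Sst and the receptors, were named after their values were seen.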

Additional observations from a re-analysis of the deposited data

Results flagged for a closer look

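In 3 of 20 groups of 5 libraries (10 members in each genotype), the highest or lowest library lay so far from the nearest other that the gap exceeded 0.71 of the whole range; chance gives about 1 in 20. Knockout replicate 3 was lowest for Prox1, at 14.4 CPM. Knockout replicate 8 was lowest for Nr2f2, at 28.5 CPM. Knockout replicate 6 was highest for Cck, at 167 CPM, and was also the highest library for Cxcl14, at 97.4 CPM.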

How the results depend on the processing

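The count of genes higher and lower in the knockout was 29 and 30. It was 75 and 96 with no filter, 54 and 70 with DESeq2, 48 and 60 at a threshold of 0.1, and 6 to 97 and 7 to 85 when 1 library was left out. Cxcl14 stayed the called member in each of those fits. Because higher Cxcl14 and Vip levels led to the choice of the genes, their values across fits are a description. Without knockout replicates 3, 5 and 6 the counts were 5 and 7, and with the striatal or the choroid list as a covariate 0 and 0; in these fits 0 members were called, with 2, 1 and 2 higher members at an unadjusted edgeR p under 0.05. Fewer libraries remain in the first of them. The replicate numbers 5 and 6 occur in both genotypes, but libraries that share a number did not deviate together (r = -0.03 and -0.057 across genes); with the replicate block, which leaves 2 pairs to compare, 3 genes were higher, 24 lower, 0 members were called and 1 member had an unadjusted edgeR p under 0.05 (Cxcl14 adjusted p = 0.0537). The median log2 fold change of the members turned to -0.012 with limma-voom and ran from -0.027 to 0.14 when 1 library was left out, so its sign is not settled; the cause was not tested. The number of member pairs that covary was 1 and became 2 with Spearman ranks, 1 to 3 when 1 library was left out, and 0 without the 3 knockout libraries, where with 7 libraries no pair on its own could pass the adjustment and 4 pairs had an unadjusted permutation p under 0.05. The log2 fold change of Vip, 0.33 with all libraries, ran from 0.21 with the replicate block to 0.45 without knockout replicates 3, 5 and 6, and passed in 0 of 23 alternatives. Htr3a has no value under the stricter filter.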
